A study of Mus musculus with 2 samples.

Results

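Iron handling and the hepcidin axis were examined in the liver of mice fed with or without oleanolic acid, a plant triterpenoid. The genes were those of hepcidin (Hamp), transferrin (Trf) and its receptors (Tfrc, Tfr2), ferritin heavy chain (Fth1), the iron carriers Slc40a1 and Slc11a2, the iron sensor Hfe, ceruloplasmin (Cp) and the BMP target Id1. They were taken by symbol: each probe set annotated with a single symbol from this list of 10 genes was included. This gave 27 of the 22690 probe sets, for 9 of the 10 genes. Trf has no value here, because the probe set annotated to it also carries a second gene symbol.

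The animals of both groups were male and apolipoprotein E-deficient, with a C57BL/6J strain background and a stated age of 2 months. That is shorter than the 11 weeks of feeding, so it is not the age at which livers were taken. The control group ate a semipurified Western diet for 11 weeks. The other group ate a Western diet supplemented over the same time with oleanolic acid at 0.01%, which corresponds to 10 mg/kg/day. Mice without apolipoprotein E clear remnant lipoproteins poorly, so both groups carry that defect. Liver RNA of each group was pooled and hybridized to 1 Affymetrix array, so every difference below compares 2 pools, has no replicate, and carries no p-value. The question was which liver transcripts differ when oleanolic acid is in the diet.

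Hepcidin is a peptide hormone made by hepatocytes that binds ferroportin, the product of Slc40a1 and the known cellular iron exporter, and causes its loss from the cell surface. Its transcription is raised by BMP-SMAD signalling, which reports iron stores and also drives Id1, and by IL-6 through STAT3 in inflammation. Transferrin carries iron in plasma and is taken up through transferrin receptor 1 (Tfrc), while Hfe and transferrin receptor 2 (Tfr2) help hepatocytes sense iron. When a cell is poor in iron, iron regulatory proteins bind the Tfrc mRNA and stabilise it, and block translation of ferritin mRNA.

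The promoter of Hamp is shown beside that of its neighbouring copy Hamp2. That of Hamp holds motifs of the BMP and STAT3 inputs, and the array carries probe sets for both copies. The sequences are RefSeq's, on GRCm38.p6, from the 250 bases before each annotated start. Hamp lies at chr7:30944030-30944279 and Hamp2 at chr7:30924182-30924431, both on the minus strand. Capitals mark, in Hamp, the hexamer GGCGCC (the core of a BMP response element) and the STAT pattern TTCNNNGAA, and in Hamp2 the stretches aligned to them.
Hamp: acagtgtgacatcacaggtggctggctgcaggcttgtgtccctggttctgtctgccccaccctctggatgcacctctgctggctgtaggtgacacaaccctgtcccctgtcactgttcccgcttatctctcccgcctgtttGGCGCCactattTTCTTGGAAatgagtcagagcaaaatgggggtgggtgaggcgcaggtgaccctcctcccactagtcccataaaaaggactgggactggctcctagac
Hamp2: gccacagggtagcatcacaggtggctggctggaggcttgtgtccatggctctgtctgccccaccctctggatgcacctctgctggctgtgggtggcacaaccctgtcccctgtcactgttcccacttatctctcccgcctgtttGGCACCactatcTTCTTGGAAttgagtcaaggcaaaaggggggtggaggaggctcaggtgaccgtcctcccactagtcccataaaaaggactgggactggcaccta
In Hamp the hexamer spans bases -109 to -104 and the STAT pattern bases -97 to -89, counted with -1 as the last base before the start. Of 247 aligned positions, 227 were identical (91.9%). Within the hexamer the copies differ by G4A (Hamp base, position from the hexamer's 5′ end, Hamp2 base), while the STAT stretch is the same in both.

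Among all 32851 promoter windows of 300 bases (250 before and 50 after a start), 11.9% hold GGCGCC, 8.3% hold TTCNNNGAA and 7.15% hold the E-box CACGTG. These motifs read alike on both strands. The table has 11 windows for 6 of the listed genes (Cp, Fth1, Hamp, Hfe, Tfr2 and Tfrc). GGCGCC is in 2 of the 11, that of Hamp and a window of Tfrc that holds it from base -89. TTCNNNGAA is in 1, that of Hamp, and CACGTG is in 0. A match describes letters in a window and is no evidence of binding.

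Signals are linear MAS5 intensities in arbitrary units. A probe set was taken as measured if at least 1 of its signals was no lower than the array's median (61.5 for the control, 59.3 for oleanolic acid). Measured probe sets of a gene were averaged to give its log2 ratio, which is above 0 where the oleanolic acid array was higher. Signals below the 25th percentile of an array (10.7 and 10.1) were raised to it. This left 7137 genes, with a median log2 ratio of 0.0012 and a central 95% from -0.56 to 0.51. Of the 27 probe sets, 20 were measured, 4 were dim and 3 are Affymetrix control probe sets for Tfrc, which were kept out of the gene value. The error given is the SD between a gene's probe sets. For a gene with 1 measured probe set it is the pooled SD in its signal band. These bands divide the genes into 4 groups of rising mean signal, with pooled SDs of 0.27, 0.25, 0.17 and 0.13. Both errors cover probes within these arrays, not differences between mice.

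**Figure D1:**
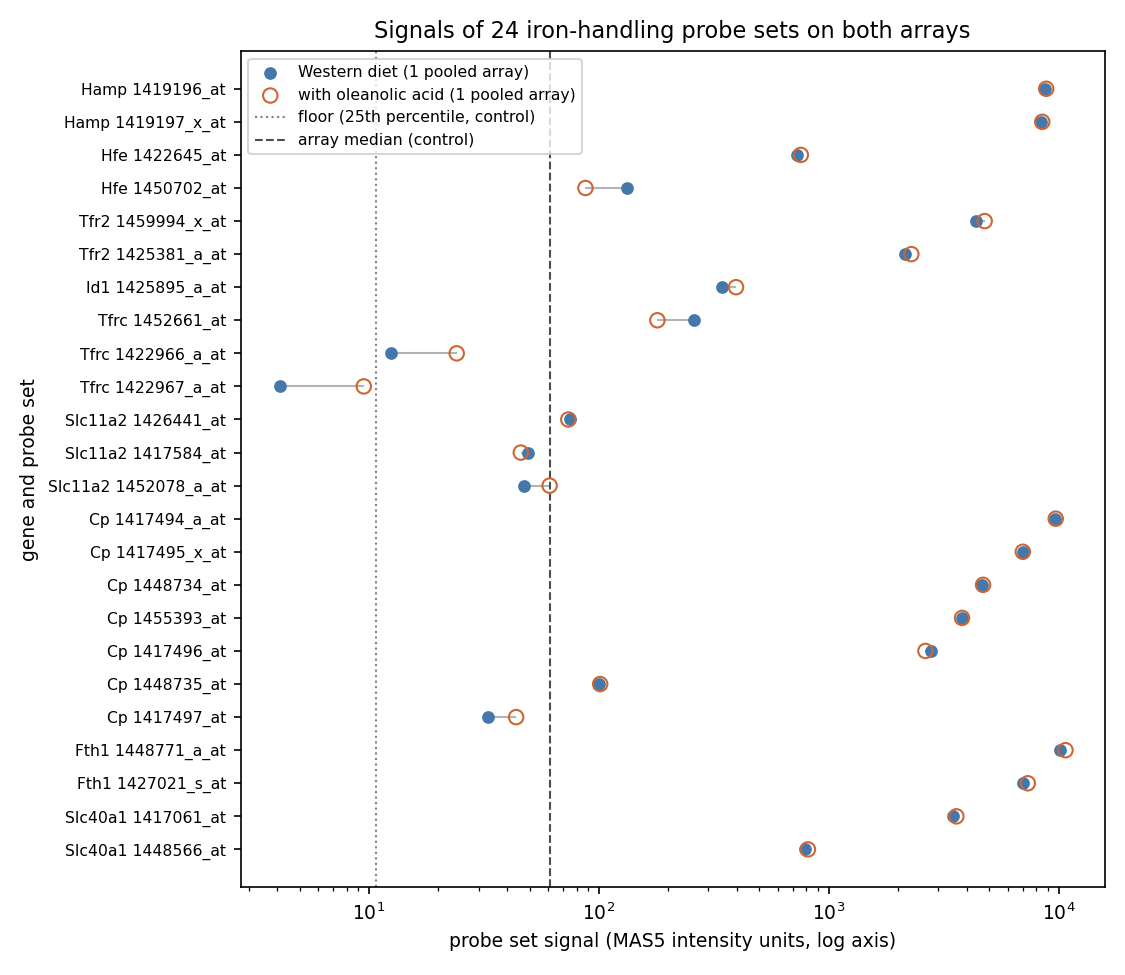
Signals of the 24 iron-handling probe sets that are not array controls, on a log axis in MAS5 intensity units; filled blue points are the Western diet array and open orange circles the oleanolic acid array, 1 pooled array each, and vertical lines mark the floor and the median of the control array. Most pairs lie on top of each other, while the Tfrc probe sets, the dimmer Hfe probe set, the dimmest Cp probe set and the Slc11a2 probe set at 47.3 and 61.1 units are visibly apart.

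Most of the axis was level between the arrays, as were most measured genes. Of the 9 measured genes, 7 had a log2 ratio within 0.2 of 0, a range that also held 68.2% of all measured genes. The other two were Tfrc, at -0.52, and Hfe, at -0.27. The median of the 9 genes was 0.05. Above 0.5 there were 0 of the 9 genes (2.63% of all measured genes), and below -0.5 there was 1, Tfrc (3.24%). Past a log2 ratio of 1 there were 0 of 9 above (0.392% of all genes) and 0 of 9 below (0.631%), and past 1.5, the size named by the submitters, again 0 above (0.112%) and 0 below (0.28%).

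Hepcidin itself was read by a pair of bright probe sets. The first (1419196_at) gave 8734 units in the control against 8839 with oleanolic acid, and the second (1419197_x_at) had 8400.0 and 8494. Each pair of signals differed by a fold of 1.01. The log2 ratio of Hamp was 0.02, and its probe sets differed by an SD of 0.00079 (n = 2). That SD is far below the 0.13 typical of probe sets in this signal band, and whether the pair has probes in common is unknown here. The value lay at percentile 46.3 of the band, whose median was 0.03, and it went to the other side of 0 with quantile normalization or lowess centring, so it has no direction.

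Hamp2, a copy that is not in the list of 10, was read by a measured probe set whose suffix marks possible cross-hybridization (1436643_x_at) with 1283 and 1447 units, a log2 ratio of 0.17 (probe set SD 0.13). Its other probe set had 1.2 and 3.3 units, under the floor on both arrays. Given the likeness of the copies, how much of the first signal comes from Hamp is unknown.

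Tfr2, the hepatic receptor that takes part in iron sensing, had 4392 and 4770.0 units on its brighter probe set and 2152 and 2289 on the other. Both were slightly higher in the oleanolic acid array. The log2 ratio was 0.10 ± 0.02 (SD, n = 2 probe sets), at percentile 75.4 of its signal band, and it was above 0 in all 8 alternative settings tried.

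Hfe, the atypical MHC class I protein mutated in hereditary haemochromatosis, was read differently by its probe sets. The brighter (1422645_at) had 729.6 and 756.4 units, a log2 ratio of 0.05. The dimmer (1450702_at) had 132.1 and 87.5 units, a log2 ratio of -0.59. Their mean of -0.27 has an SD of 0.46 (n = 2 probe sets), larger than the value, and with the brightest probe set alone the ratio was 0.05. The direction for Hfe is therefore unsettled.

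Id1, an inhibitor of helix-loop-helix factors and a direct BMP target, had signals of 344.4 and 395.4 on its single probe set, 1.15-fold higher with oleanolic acid. The log2 ratio was 0.20 (probe set SD 0.17), at percentile 88.3 of its band, and between 0.19 and 0.22 in the alternative settings. It thus exceeded its error slightly and stayed inside the band's central 95% (-0.47 to 0.42).

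**Figure D2:**
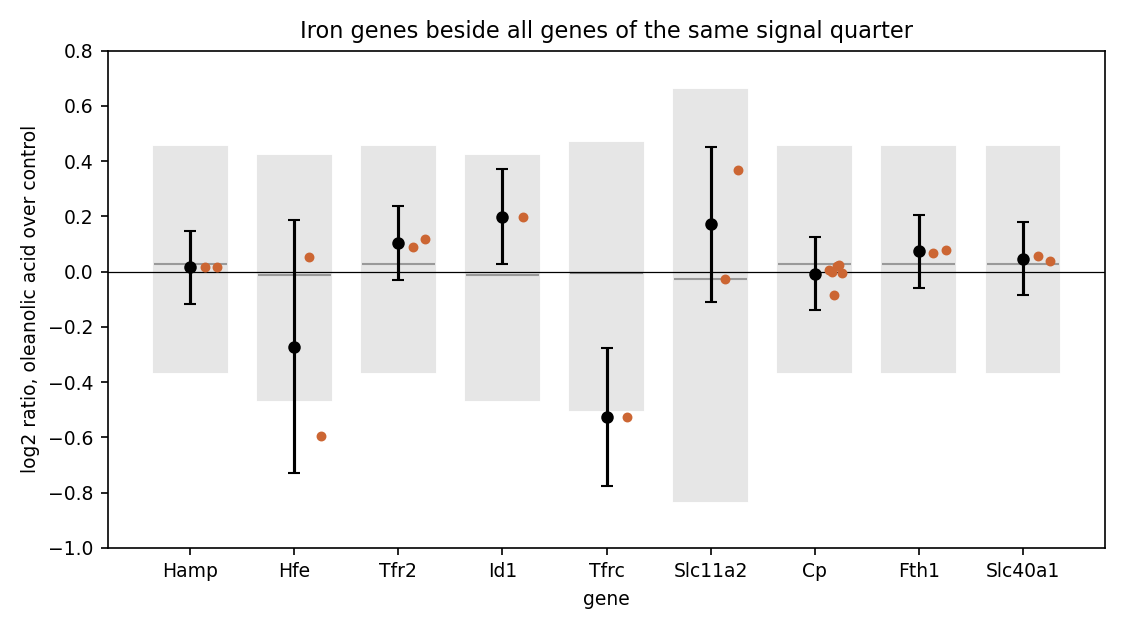
Log2 ratio of each of the 9 measured genes, oleanolic acid over control: black points are gene values, bars the larger of the SD between probe sets and the pooled SD of the signal band, orange points single measured probe sets, and grey boxes with a line the central 95% and the median of all genes in the same signal band. Tfrc, at -0.52, is the one gene outside its box.

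Transferrin receptor 1, the uptake receptor, was the gene that differed most. Its measured probe set (1452661_at) gave 258.8 units in the control and 179.9 with oleanolic acid, which is 0.70 of the control signal. The log2 ratio of -0.52 was larger than the probe set SD of 0.25 and lay at percentile 2.3 of its band, just below the band's central 95% (-0.50 to 0.47). The call rests on that single probe set. The other regular probe sets had 12.5 and 24.1 units and 4.1 and 9.5 units, higher in the oleanolic acid array but near or under the floor. The 3 control probe sets for Tfrc lay between 1.0 and 7.2 units on both arrays. Counting all regular probe sets as measured turned the ratio to 0.11. A pseudocount of 16 gave -0.49 and quantile normalization -0.499, both just short of -0.5. Slc25a37, the mitoferrin described with the mitochondrial genes, had a like ratio of -0.53.

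Tfrc is abundant in red cell precursors and proliferating cells as well as present in hepatocytes. In whole tissue, fewer cells of a type and less RNA per cell cannot be told apart. Of 13 erythroid markers listed, 8 had a probe set and 3 were measured: Alas2, the erythroid heme synthesis enzyme, at -0.07, Hbb-b2, a globin, at -0.05 and Klf1, an erythroid transcription factor, at 0.29. Their summed signal was 523.3 and 517.8. The dim globin probe set of Hba-a1 had 2.5 and 3.3 units and that of Hba-a2 10.0 and 10.3. The globin genes Hbb-b1, Hbb-bs and Hbb-bt had no probe set annotated to them alone, so these values do not measure globin RNA as a whole. Alas2 and Hbb-b2 lay within their probe set SDs, and Klf1 was just past its SD of 0.27. Hbb-b2 (67 and 64.8 units) and Klf1 (62.8 and 77 units) lay near the array medians. The part of erythroid cells in the Tfrc and Slc25a37 values was not tested.

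Slc11a2, the divalent metal transporter DMT1 that moves iron out of endosomes, was dim. Its measured probe sets had 75.1 and 73.7 units and 47.3 and 61.1 units, the latter counted only through the oleanolic acid array, and the third, below the medians, had 49.3 and 45.8. The log2 ratio of 0.17 had an SD of 0.28 (n = 2 probe sets). It ran from -0.03 to 0.21 over the alternative settings and was below 0 in 3 of 8, so it has no direction.

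Ceruloplasmin, the copper ferroxidase that lets iron load onto transferrin, was read by 7 probe sets. Of these, 6 were measured, from 99.8 to 9677 control units and from 101.4 to 9721 units with oleanolic acid. Their log2 ratios ran from -0.08 to 0.02, and the gene value was -0.0072 ± 0.04 (SD, n = 6 probe sets), with a sign that changed in 2 of 8 settings. The dim probe set (1417497_at) stood apart at 33.0 and 43.7 units. The bright and the dim measured probe sets of Cp thus gave like ratios, all small.

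Fth1, the ferroxidase subunit of the ferritin shell that stores iron, had 10147 and 10718 units on its brighter probe set and 7013 and 7349 on the other. Both were a little higher in the oleanolic acid array. The log2 ratio was 0.07 ± 0.0082 (SD, n = 2 probe sets), but 0.019 with quantile normalization and 0.0099 with lowess centring. Its size is below the band's pooled SD of 0.13, as is that of Tfr2 and of Slc40a1. Ferritin is set largely at translation, so its mRNA level is no measure of the protein.

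Slc40a1, the ferroportin gene, had 3459 and 3594 units on one probe set and 791.5 and 812.3 on the other. The log2 ratio was 0.05 ± 0.01 (SD, n = 2 probe sets), a fold of 1.03, and it was above 0 in all 8 alternative settings. Ferroportin is also strong in Kupffer cells, which recycle iron from red cells. Of 15 Kupffer cell and macrophage markers listed, 12 were measured, and 11 of the 12 were lower in the oleanolic acid array. Their median was -0.13, against 0.0012 over all measured genes, and their summed signal was 16860 in the control against 15480. Marco, a scavenger receptor, was lowest at -0.67 (probe set SD 0.25), while Clec4f, a defining Kupffer cell lectin, was at -0.125 (probe set SD 0.132). Several of the 11 lower genes, Clec4f among them, lay within their probe set SDs. The part of the macrophage difference in the Slc40a1 value was not tested.

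The small ratios of Hamp, Fth1 and Cp lay in the range of other bright probe sets. At 7000 units or more on both arrays, a limit chosen after seeing the values, there were 106 probe sets, with a median log2 ratio of 0.05 and a central 95% from -0.07 to 0.14. The 5 probe sets of Hamp, Fth1 and Cp among them all lay inside that range. The highest signals in the table were 12639 and 13547, and whether such signals still follow RNA amount in proportion was not tested.

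**Figure D3:**
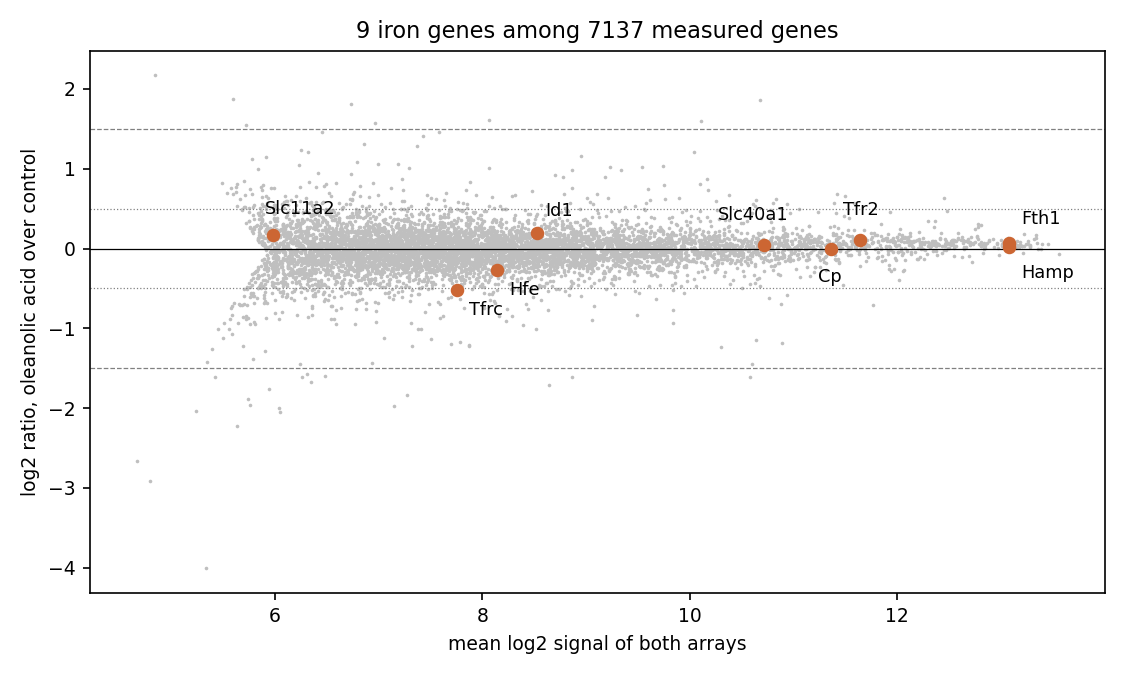
Log2 ratio, oleanolic acid over control, against the mean log2 signal of both arrays for all 7137 measured genes (grey) and the 9 iron genes (orange); dotted lines mark 0.5 and dashed lines 1.5 in either direction. The spread of all genes narrows with signal, and of the 9 genes Tfrc alone is below the lower dotted line.

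The wider iron pathway gave a like picture. The 7 lists of other iron genes held 113 symbols, of which 89 had a probe set and 72 were measured. Their median log2 ratio was 0.02. Above 0.5 were 3 genes (Id2, Id3 and Socs3), below -0.5 were 3 (Scara5, Lcn2 and Slc25a37), and 66 lay between. The share past 0.5 in either direction was 8.33%, against 5.87% of all measured genes. Past 1 there were 0 in either direction.

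In the BMP-SMAD list 18 genes were measured, 10 above and 8 below 0, with a median of 0.03. The genes above 0 include Bmp4 (56.1 and 65.1 units), measured only through the oleanolic acid array, as was Neo1. Requiring both arrays at the median gave a list median of -0.0020. The other Id genes had larger ratios than Id1. Id2 had 2004 and 2784 units, 1535 and 2195 units, and 111.3 and 201.6 units on its probe sets, and the mean log2 ratio was 0.62 with an SD of 0.21 (n = 3). Id3 had 626.8 and 928.2 units (log2 ratio 0.57, probe set SD 0.13). All 4 of these probe sets were higher in the oleanolic acid array. With the brightest probe set alone Id2 was at 0.47, short of 0.5. The other 16 genes of the list lay within 0.5 of 0: the ligand Bmp2 was at -0.04, the receptors Acvr1 and Bmpr1a at 0.11 and 0.03, the transducers Smad1, Smad5 and Smad4 at -0.06, -0.29 and 0.06, and the feedback inhibitors Smad6 and Smad7 at -0.10 and 0.17. Counting all its probe sets turned Smad5 to 0.13. Neo1, which binds hemojuvelin, was at 0.35 on signals of 51.9 and 66.3. It counted as measured only through the oleanolic acid array, was at 0.11 with the floor at the array median, and had no value where both arrays had to reach the median. Bmp6, the ligand that endothelial cells make when iron is plentiful, was dim, at 56.1 and 51.0 units.

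The inflammatory input was mixed. In the IL-6-STAT3 list 10 genes were measured, 7 above and 3 below 0, with a median of 0.07. The genes above 0 include Il1b (56.8 and 60.8 units), measured only through the oleanolic acid array. Requiring both arrays at the median gave a list median of 0.03. Socs3, the feedback inhibitor induced by STAT3, had 69.5 and 110.6 units, 219.6 and 377.7 units, and 123.9 and 156.7 units, higher on each probe set. Its log2 ratio was 0.60 ± 0.23 (SD, n = 3 probe sets). Il6ra, the receptor, was lower at -0.41 ± 0.23 (SD, n = 2 probe sets), and its brighter probe set had 727.4 and 487.0 units. Stat3 was at 0.11, Jak2 at -0.20, Cebpa, a factor needed for basal hepcidin expression, at 0.0090 and Creb3l3 at 0.15. With the brightest probe set alone Il6ra was at -0.58. The Il6 probe set had 6.7 and 2.8 units, under the floor.

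Acute phase genes, which share the IL-6 input with Hamp, gave a median of 0.06 over 20 measured genes, 11 above and 9 below 0. Past 0.5 there were 0 higher (2.63% of all measured genes) and 3 lower (3.24%). The 3 were Saa2 (2147.5 and 1399.5 units, log2 ratio -0.62), Orm2 (-0.57) and Lcn2. The metallothionein Mt2 was at -0.46 and the haptoglobin gene Hp at 0.07.

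Iron regulatory proteins and sensors were within 0.5 of 0 in 6 of 6 measured genes, as were 94.1% of all measured genes. Their median was -0.11. Aco1, the iron regulatory protein that doubles as cytosolic aconitase, was at -0.09 ± 0.04 (SD, n = 2 probe sets) and Ireb2, the second such protein, at -0.14 (probe set SD 0.17). The hypoxia factors Hif1a and Epas1 were at -0.30 and -0.33, and Hif1a was at -0.08 with all probe sets measured.

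Among other uptake genes, 8 were measured, 3 above and 5 below 0, with a median of -0.03. Scara5, a scavenger receptor that binds ferritin, had 109.6 and 61.3 units (log2 ratio -0.84, probe set SD 0.27), and its second probe set lay under the floor. Counting that probe set moved the ratio to -0.46. Lcn2, the siderophore-binding lipocalin, had 886.7 and 603.6 units (log2 ratio -0.55, probe set SD 0.13). The metal carriers went in opposite directions: Slc39a8 had 380.6 and 528.3 units (0.47) and Slc39a14, which takes up iron not bound to transferrin, 990.6 and 806.4 (-0.30).

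In the storage and chaperone list 7 of 7 measured genes were within 0.5, as were 94.1% of all measured genes, and the median was 0.0043. The iron chaperone Pcbp1 was at 0.0043, Pcbp2 at 0.18, Pcbp4 at 0.36 and the ferritin autophagy receptor Ncoa4 at -0.13. Pcbp4 was at 0.18 with the floor at the array median and at 0.23 with all probe sets measured. Prnp, the prion protein gene, was the lowest of the list at -0.28 ± 0.12 (SD, n = 2 probe sets), at percentile 8.63 of its band. In the heme scavenging list 11 of 11 were within 0.5, with a median of 0.07. Hpx, which binds free heme, was at 0.06, and Hmox1, the heme-degrading enzyme that frees its iron, at 0.07. The transporters Flvcr2, Slc48a1 and Slc46a1 were at 0.35, 0.30 and 0.23. The efflux pump Abcg2 was at -0.12. Cd163, the macrophage receptor for haptoglobin-bound haemoglobin, was dim at 37.1 and 34.4 units.

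Mitochondrial iron genes had a median of -0.02 over 12 measured genes, 11 of them within 0.5 (94.1% of all measured genes). Slc25a37, the mitoferrin that imports iron into mitochondria of erythroid cells, was the exception, with 403.6 and 278.9 units on its probe set (log2 ratio -0.53, probe set SD 0.17). Hscb, a cochaperone of iron-sulfur cluster transfer, was at 0.29 (probe set SD 0.27), the sulfur donor enzyme Nfs1 at 0.10 and the ferredoxin Fdx1 at -0.09. The relative of Slc25a37, Slc25a28, was at -0.04, the cluster scaffold Iscu at -0.09, and Fech, which inserts iron into heme, at 0.05 ± 0.05 (SD, n = 3 probe sets).

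**Figure D4:**
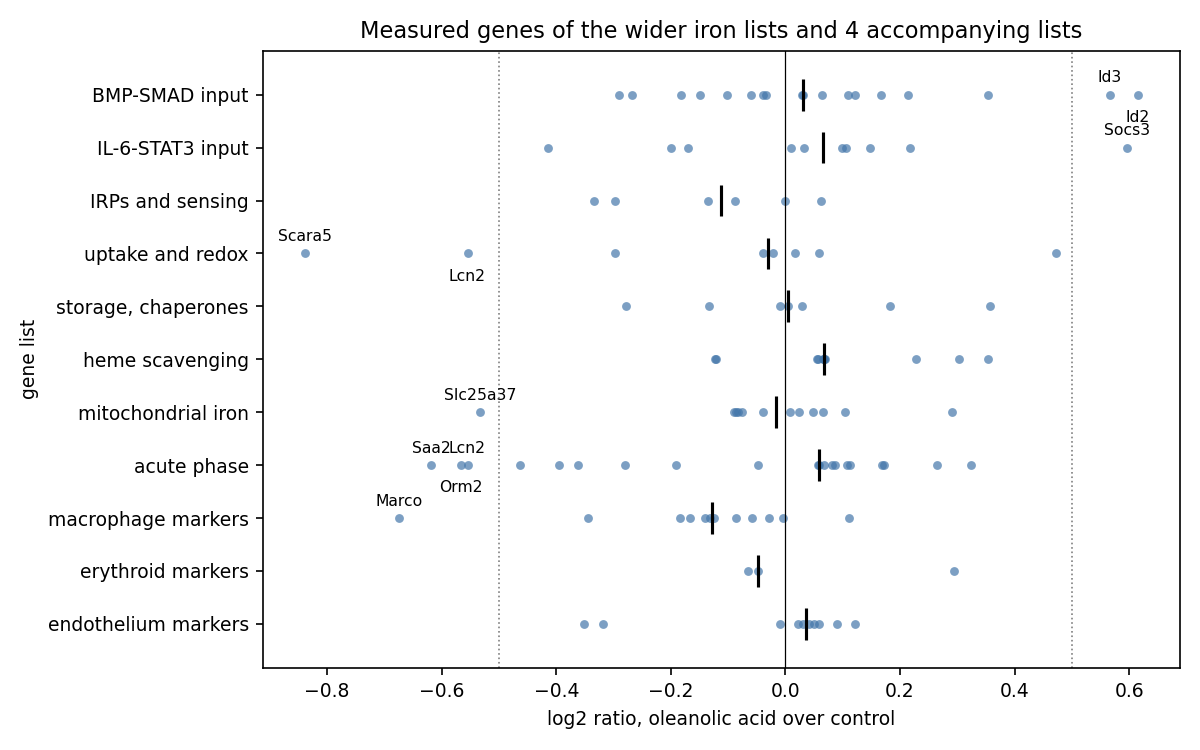
Log2 ratio, oleanolic acid over control, of each measured gene (blue points) in 7 wider iron lists and in 4 accompanying lists, with black bars at the list medians and dotted lines at 0.5 in either direction. Genes past 0.5 are named; list medians lie between -0.13 and 0.07.

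Markers of the labelled tissue and of other cells were checked on the same arrays. Of the 9 measured hepatocyte markers, Alb had 8540.0 and 8950.3 units and Hnf4a, the dimmest, gene signals of 559 and 651. Within 0.5 of 0 lay 8 of the 9 (94.1% of all measured genes), Tat being at -0.70. Sinusoidal endothelial markers, cells that supply BMP ligands, had a median of 0.04 (10 of 10 within 0.5). Stellate cell markers had a median of -0.01 over 5 genes (4 of 5 within 0.5). Among them Lum was at -0.46 and Lrat at 0.66. Lrat, with 48.1 and 75.9 units, counted as measured only through the oleanolic acid array. With both arrays required at the median, the stellate median was -0.08. Exocrine pancreas markers were dim, and all 8 with a probe set counted as measured only through the control array. Their summed signal was 818 in the control and 248 with oleanolic acid. With all probe sets measured, where no gene is left out by its signal, their median was -1.77. With the floor at the array median it was -0.72, and with both arrays required at the median none was left. Of the plasma cell genes, Ighm was at -1.97 ± 1.31 (SD, n = 3 probe sets) and Jchain, measured only through the control array, at -1.61. The median of that list was -0.44 with all probe sets measured. Clock genes had a median of -0.37 over 15 genes, with 4 above 0.5 (2.63% of all measured genes) and 5 below -0.5 (3.24%). Some of those above 0.5 counted as measured only through the oleanolic acid array. The clock median was -0.46 with both arrays required at the median. No label gives the time of day at which livers were taken. The part of these differences in the Tfrc and Id values was not tested.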

How the data were processed

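The deposited values are linear intensities (MAS5 signals) made by the authors, per the submitters' processing notes (version not stated). A single array of pooled liver RNA represents each diet, and neither the size of the pools nor a genome build is stated. The growth protocol names oleanolic acid for both samples, so groups follow the titles. The trimmed mean (2% from each end) was 300.1 on both arrays, and no further scaling was applied. Detection calls were not used here. Gene symbols came from the platform annotation: 20380 probe sets carried 1 symbol, 691 several and 1555 none, and 64 were array controls. 20351 matched RefSeq by gene identifier, all 9 iron genes included.

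Values were computed with Python 3.11.15, pandas 2.3.3, statsmodels 0.14.6 and Biopython 1.88, and the procedure was tested on simulated data. The shifts planted there did not cover dim genes or ratios as small as those of the iron genes. Signals were floored, converted to log2 and averaged per gene over measured probe sets. With 1 array per diet no test was run, and the number of arrays limits precision. The genes named are the 10 listed, members of the BMP-SMAD, IL-6-STAT3 and iron regulatory lists, the top 4 of each other iron list and of the acute phase list by absolute ratio, and up to 4 of each marker list; Hp, Hpx, Hmox1, Cd163, Pcbp1, Iscu, Fech, Slc25a28, Clec4f, Alb, Hamp2, Hba-a1 and Hba-a2 were added after their values were seen. Genes and lists were chosen with earlier results of these data known. Promoters were to be shown only for genes that differed together. The Hamp and Hamp2 promoters are shown instead for the known inputs to Hamp. Alternatives covered the floor, a pseudocount, the measured rule, the probe sets used and the scaling.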

Additional observations from a re-analysis of the deposited data

How the results depend on the processing

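For the iron genes, a move smaller than the larger of the SD between probe sets and the band's pooled SD was taken as no change, and by that measure 8 of the 9 genes were unchanged in all 8 alternative settings. The exception was Tfrc, whose ratio turned to 0.11 with all probe sets measured. It was 0.015 when the Affymetrix control probe sets were also counted, an alternative added after seeing the data. Both settings add probe sets near or under the floor. The measure could not register a change where only 1 of a gene's 2 measured probe sets was kept, because the mean then moves by less than their SD. The sign also changed in 2 of 8 settings for Hamp and for Cp, in 3 for Slc11a2 and in 1 for Hfe. The number of iron genes below -0.5 was 0 with a pseudocount of 16, with all probe sets measured and with quantile normalization. Among all 7137 measured genes, the main setting gave 188 above 0.5, 231 below -0.5, 28 above 1 and 45 below -1. It gave 8 above 1.5 and 20 below -1.5. The floor and the pseudocount keep these genes, while the measured rule changes which genes are counted. Totals under that rule are not given here, so its counts are not shares. The floor at the array median gave 18 above 1, 25 below -1, and 5 past 1.5 in each direction. A pseudocount of 16 gave 18 above 1, 4 above 1.5 and 11 below -1.5. All probe sets measured gave 452 above 0.5, 691 below -0.5, 64 above 1, 122 below -1 and 34 below -1.5. Requiring both arrays at the median gave 145 below -0.5, 18 past 1 and 5 past 1.5 in each direction. The cause of these shifts was not tested. The median of all genes lay between -0.08 and 0.01 in these settings. Of the 6 wider iron genes past 0.5, Id2 (0.47 with the brightest probe set) and Scara5 (-0.46 with all probe sets measured) fell short of it in 1 setting each. Of the other wider iron genes named, Smad5 turned from -0.29 to 0.13 and Hif1a went from -0.30 to -0.08 with all probe sets measured, and Neo1 went from 0.35 to 0.11 with the floor at the array median. The medians of the 7 wider iron lists stayed within the pooled probe set SD of 0.20 in every setting. No replicate could be left out, with 1 array per diet. Dim genes are limited by signal near background, which could not be judged without detection calls.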
